A study of Rattus norvegicus with 9 samples.

Results

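The 9 genes described here encode the core of the NF-kappaB system and 1 of its best known products. They are the subunit genes Rela, Relb, Nfkb1 and Nfkb2, the inhibitor genes Nfkbia, Nfkbib and Nfkbie, the feedback gene Tnfaip3 and the adhesion molecule gene Vcam1. They were taken by gene symbol, 1 row each, from tables of 22050 genes, and all 9 were among the 13693 genes with enough reads to be tested. RNA sequencing covered 9 libraries of primary cortical neurons from Sprague Dawley rats at embryonic day 19, in 3 groups of 3. Control cultures were untreated. Another group was kept under oxygen-glucose deprivation (OGD), used in culture to model stroke, for 4.5 h at 1% oxygen in medium without glucose or pyruvate, and then returned to normoxia and regular medium. The last group went through OGD and normoxia and received Wnt3a at 100 ng/ml plus Rspondin 1 at 50 ng/ml, with a treatment of 24 h. Wnt3a activates Wnt/beta-catenin signalling and Rspondin 1 strengthens that response. The labels give the hours and oxygen level for OGD alone, and no time of harvest. In the deposited tables the libraries of OGD alone carry the name Vehicle, and no label says which vehicle was given. No group received the proteins without OGD among the libraries used here.

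NF-kappaB is a family of dimeric transcription factors. In resting cells the dimers are held in the cytoplasm by inhibitory I-kappaB proteins. When receptors for tumour necrosis factor, interleukin-1 or microbial products are engaged, the I-kappaB kinase phosphorylates the inhibitors, which are then degraded, and the freed dimers enter the nucleus (the canonical route, led by RELA and the NFKB1 product). A slower non-canonical route processes the NFKB2 precursor, which pairs with RELB. Nfkbia, Tnfaip3, Nfkb2, Relb and Vcam1 are textbook targets of the factor, so several of the genes sit both in the pathway and downstream of it. In brain, astrocytes, microglia and endothelium are the cells best known for inducible NF-kappaB, and VCAM1 is found on activated endothelium as well as on astrocytes and neural progenitors.

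The promoters are shown first because most of the genes are known to be controlled by the factor they encode or restrain. RefSeq promoter windows of the rat build GRCr8 (250 bases before to 50 after the start of the gene) were found by symbol for 8 of the 9 genes, not Relb. The 10-base kappaB consensus motif was searched on both strands. At least 1 match was present in 6 of the 8 windows, against 1400 of 33469 windows in the table (4.18%) and 590 of 11573 windows of tested genes (5.1%). Stretches around the matches follow, 5′ to 3′ on the strand of the gene, with the matched bases in capitals. In Nfkbia and in the second Tnfaip3 stretch the motif reads on the opposite strand, and in Vcam1 it reads on both.
Nfkb1, chr2:226805440-226805469, minus strand: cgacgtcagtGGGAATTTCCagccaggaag
Nfkb2, chr1:255108314-255108373, plus strand: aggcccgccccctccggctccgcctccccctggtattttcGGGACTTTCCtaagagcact
Nfkbia, chr6:78597073-78597132, minus strand: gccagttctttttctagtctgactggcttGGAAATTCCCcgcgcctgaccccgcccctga
Nfkbie, chr9:22948002-22948061, minus strand: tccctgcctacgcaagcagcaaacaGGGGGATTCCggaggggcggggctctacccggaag
Tnfaip3 distal, chr1:15544115-15544174, minus strand: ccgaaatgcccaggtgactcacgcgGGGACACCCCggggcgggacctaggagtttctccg
Tnfaip3 proximal, chr1:15544006-15544065, minus strand: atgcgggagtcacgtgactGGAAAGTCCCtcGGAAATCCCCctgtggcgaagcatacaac
Vcam1, chr2:206742842-206742901, minus strand: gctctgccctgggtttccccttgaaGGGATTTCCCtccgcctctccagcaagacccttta

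The match of Nfkb2 lay 20 to 11 bases before the start, that of Nfkbia 31 to 22 bases and that of Vcam1 93 to 84 bases before it. Nfkb1 had its match just after the start, at bases 4 to 13. Tnfaip3 had 3 matches, more than any other of the 8 windows, and its proximal pair stood 67 to 58 and 55 to 46 bases before the start. Rela and Nfkbib had no match within their windows, which says nothing about sites elsewhere. A match is a description of sequence and not a measurement of binding.

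**Figure D1:**
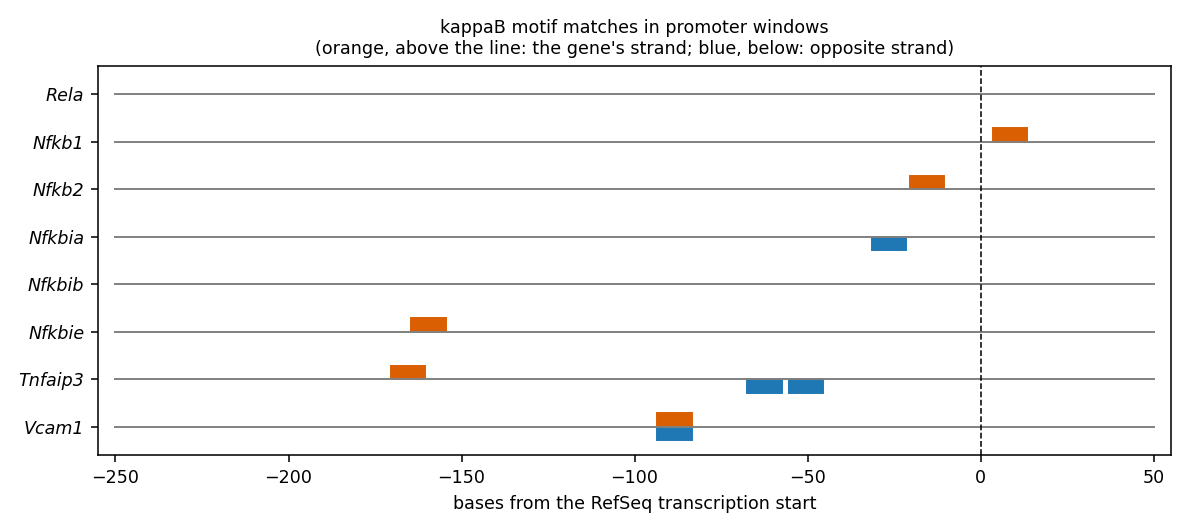
Position of kappaB motif matches in the promoter windows of 8 genes, in bases from the RefSeq transcription start (x axis, dashed line at the start). Orange boxes are matches on the strand of the gene and blue boxes on the opposite strand. Tnfaip3 has 3 matches, Vcam1 has 1 position matched on both strands, and Rela and Nfkbib have none.

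The libraries held 14285914 to 25048521 counts. Pearson's r of log2 CPM (counts scaled to library size) across tested genes was 0.861 to 0.889 for pairs of a control and an OGD library and 0.979 to 0.989 for pairs from the 2 groups with OGD. In a bulk culture, fewer cells of a type and less RNA per cell cannot be told apart. The levels of cell type markers moved with OGD. All 12 neuron markers fell, with a summed level of 2940 to 3075 FPKM (fragments scaled to gene length and library size) in controls and 523 to 700.1 after OGD. Of 11 astrocyte markers 10 rose and 1 fell (summed 2339 to 2488 FPKM in controls, 6339 to 6846 after OGD). All 9 tested of 14 microglia markers rose (4.39 to 6.65 FPKM, then 24.6 to 27.6). Of 8 tested neural progenitor markers 7 rose and 1 fell (summed over 9 in the list, 1047 to 1177 FPKM, then 4024 to 4593). Endothelial markers stayed low in sum, at 1.71 to 2.08 FPKM in controls and 2.65 to 3.6 after OGD. Of 4 tested endothelial markers 2 rose and 1 fell. Cldn5 had 0 reads in all libraries and Emcn had 0 in both groups with OGD. Markers of mural cells and fibroblasts summed to 102 to 126 FPKM in controls and 678 to 891 after OGD, although only 3 of 8 tested rose and 3 fell. Oligodendrocyte lineage markers summed to 426 to 513 FPKM in controls and 1097 to 1107 after OGD, and 6 of 10 rose and 2 fell. Beside these counts, 36.3% of all tested genes were called higher after OGD and 36.8% lower (edgeR, adjusted p under 0.05). Between the OGD groups 1 astrocyte marker was called higher and 1 lower, and none in the other marker lists, beside 0.197% of all tested genes. The astrocyte sum with the proteins was 5912 to 6216 FPKM, below that of OGD alone. The part of these cell classes in the results on the 9 genes was not tested. Replicates are labelled as separate samples, and nothing states separate cultures or animals, so the p-values measure only how far these libraries differ, and that spread can be technical.

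OGD was set against untreated control. Of the 9 genes, 7 rose and 2 fell. All 4 subunit genes rose, the inhibitor genes Nfkbia and Nfkbib rose with them, and Vcam1 rose, while Nfkbie and Tnfaip3 fell. The fitted log2 changes ran from -1.41 to 1.68 with a median of 0.85, beside a median of 0.02 over all tested genes. The largest adjusted p among the 9 was 0.00200 (Nfkbie; edgeR's quasi-likelihood test, Benjamini-Hochberg over all tested genes). These calls have a high background: 73.1% of all tested genes were called in this comparison, 36.3% as higher and 36.8% as lower. The FPKM ranges of the 2 groups did not overlap for any of the 9, as for 75.3% of all tested genes. A call or a separation of groups therefore does not by itself set these genes apart from the rest of the transcriptome.

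Rela (ENSRNOG00000030888), which encodes the main transactivating subunit of the canonical dimer, was the most abundant subunit transcript per length in all 3 groups. Its levels were 11.3, 12.1 and 11.3 FPKM in control replicates 1 to 3 and 22.9, 20.7 and 20.8 FPKM after OGD. The lowest OGD library stood well above the highest control. The fitted change was 1.75-fold, a log2 rise of 0.81 ± 0.08 (change ± SE, n = 3 per group, adjusted p = 1.21e-06 by edgeR).

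Nfkb1 (ENSRNOG00000023258) encodes the precursor that gives the DNA-binding partner of RELA. It was at 5.38, 5.7 and 5.05 FPKM in controls and at 10.45, 10.95 and 9.8 FPKM after OGD. All OGD libraries were higher than all controls, and the spread within each group was small beside the gap. The log2 rise was 0.87 ± 0.09 (1.83-fold, adjusted p = 2.18e-06).

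Relb (ENSRNOG00000033235) encodes the subunit of the non-canonical dimer. It had the lowest mean of the 9 in controls, with 2.36, 2.33 and 2.31 FPKM, and reached 4.34, 4.59 and 4.13 FPKM after OGD. The groups did not overlap. With only 61 to 171 reads per library in these groups its error was wider, at a log2 rise of 0.85 ± 0.14 (1.80-fold, adjusted p = 0.000104). Rela, Relb, Nfkb1 and the inhibitor gene Nfkbib had fitted changes between 0.81 and 0.87 with intervals that overlap broadly.

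Nfkb2 (ENSRNOG00000019311), the precursor gene of the non-canonical route, had the largest rise of the 9. It moved from 2.74, 2.48 and 2.52 FPKM in controls to 8.73, 8.31 and 9.3 FPKM after OGD. The lowest OGD library was about 3 times the highest control. The log2 rise was 1.68 ± 0.10 (3.20-fold, adjusted p = 8.30e-09), above the change of 95.5% of tested genes. Its 95% interval, 1.46 to 1.89, lay above those of Rela (0.63 to 0.99), Relb (0.55 to 1.15) and Nfkb1 (0.67 to 1.07), although the difference between genes was not tested. The ratio of Nfkb2 to Nfkb1 FPKM was 0.481 ± 0.040 in controls and 0.848 ± 0.096 after OGD (mean ± SD, n = 3).

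The summed FPKM of the 4 subunit genes was 21.8 ± 0.76 in controls and 45.0 ± 1.28 after OGD. Within that sum the makeup shifted. Nfkb2 made up 10.9% to 12.6% of it in controls and 18.7% to 21.1% after OGD, while the share of Rela was 51.8% to 53.6% and then 46.5% to 49.4%. The share of Nfkb1 overlapped between the groups (23.9% to 25.2%, then 22.3% to 24.6%), as did that of Relb (10.3% to 10.9%, then 9.35% to 10.3%). FPKM sums count transcripts per length and say nothing about protein or about dimers.

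Among the inhibitors, Nfkbia (ENSRNOG00000007390) encodes I-kappaB-alpha, which is degraded on activation and rapidly resynthesised as a target of the factor. It was at 14.85, 13.6 and 13.3 FPKM in controls and at 47.1, 36.8 and 40.6 FPKM after OGD. OGD replicate 1 was the highest library, and all OGD libraries were more than 2 times any control. The log2 rise was 1.49 ± 0.11 (2.80-fold, adjusted p = 8.02e-08), above the change of 93.5% of tested genes.

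Nfkbib (ENSRNOG00000020063) encodes I-kappaB-beta, an inhibitor with slower turnover. Its levels were 18.75, 18.15 and 16.6 FPKM in controls and 36.45, 31.9 and 33.3 FPKM after OGD, without overlap. Its log2 rise of 0.84 ± 0.09 (1.79-fold, adjusted p = 2.75e-06) was close in size to those of Rela and Nfkb1. In controls it was the most abundant inhibitor transcript, and Nfkbia was above it in each library of OGD alone.

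Nfkbie (ENSRNOG00000019907) encodes I-kappaB-epsilon, another inhibitor that retains RELA dimers, and went the other way. It was at 10.1, 9.16 and 7.83 FPKM in controls and at 6.99, 5.55 and 5.35 FPKM after OGD. The groups did not overlap, but control replicate 3 and OGD replicate 1 lay close together. Nfkbie fell by 0.69 ± 0.16 on the log2 scale (1.61-fold lower, adjusted p = 0.00200). Its share of the summed FPKM of the 3 inhibitor genes was 20.7% to 23.1% in controls and 6.75% to 7.72% after OGD, while that of Nfkbia was 33.3% to 35.3% and then 49.5% to 52.0%. The sum of the 3 inhibitor genes over the sum of the 4 subunit genes overlapped between the groups, at 1.87 ± 0.12 and 1.81 ± 0.14.

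**Figure D2:**
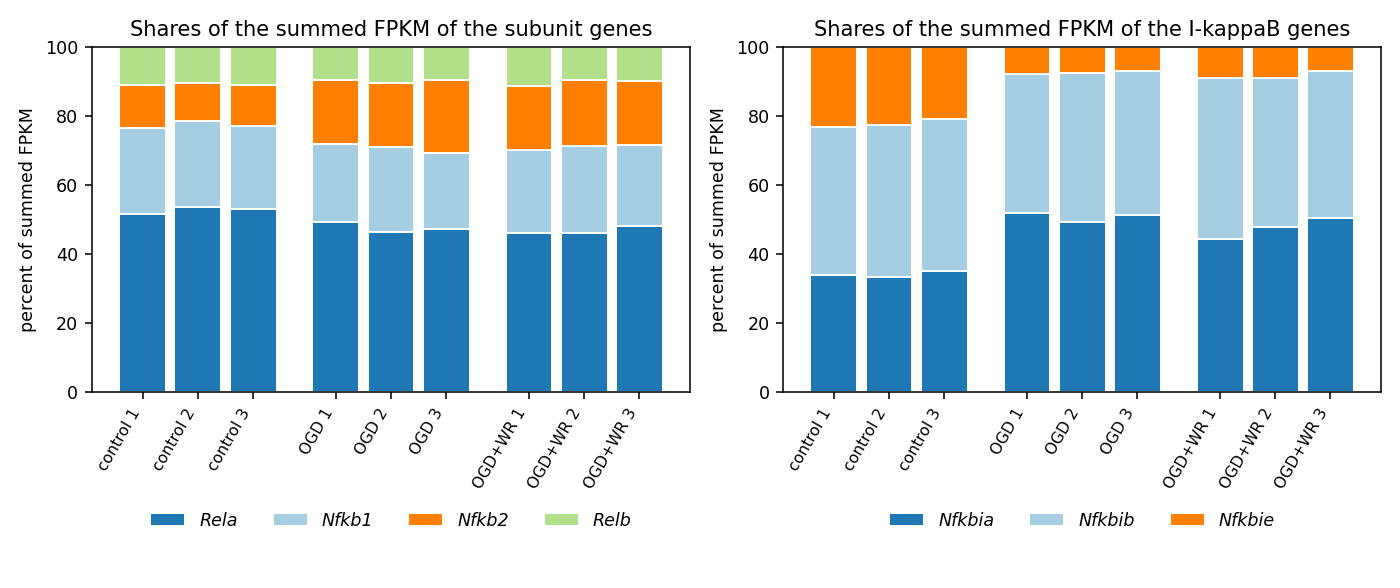
Shares of the summed FPKM in each library (y axis, percent) for the 4 subunit genes (left) and the 3 I-kappaB genes (right); bars are control, OGD and OGD with Wnt3a plus Rspondin 1 (OGD+WR) replicates 1 to 3. Nfkb2 takes 10.9% to 12.6% of the subunit sum in controls and at least 18.5% in every library with OGD, whereas Nfkbie takes 20.7% to 23.1% of the inhibitor sum in controls and at most 8.95% elsewhere.

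Tnfaip3 (ENSRNOG00000049517) encodes a ubiquitin-editing enzyme that shuts off signalling from tumour necrosis factor and Toll-like receptors. It fell, and its promoter window was the one with most kappaB matches among the 8. Its levels were 2.5, 2.73 and 2.24 FPKM in controls and 0.89, 1.03 and 1.04 FPKM after OGD. Every OGD library was under 0.5 times the lowest control. The reads behind these values were few, 104 to 137 per control library and 31 to 56 per OGD library. Tnfaip3 fell by 1.41 ± 0.16 on the log2 scale (2.66-fold lower, adjusted p = 4.79e-06). The ratio of Nfkbia to Tnfaip3 FPKM was 5.63 ± 0.55 in controls and 42.6 ± 9.15 after OGD (n = 3).

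Vcam1 (ENSRNOG00000014333) encodes an immunoglobulin-type adhesion molecule that binds integrins on leukocytes. It was the most abundant of the 9 transcripts per length in every group, at 28.2, 30.6 and 29.8 FPKM in controls and 67.3, 89.8 and 80.0 FPKM after OGD. The controls were tightly grouped, while OGD replicate 1 was lower than the other OGD libraries and still above every control. For Vcam1 the ratio of FPKM to CPM ran from 0.334 to 0.358 over the libraries, and for Relb from 0.596 to 0.641. For the other 7 genes it was nearly fixed, so FPKM and counts can differ slightly for this pair. The fitted changes of all 9 genes also use factors for library composition, which the FPKM values do not. The authors' log2 ratio of mean FPKM for Rela after OGD, for example, was 0.89, beside a fitted 0.81. The log2 rise was 1.33 ± 0.10 (2.51-fold, adjusted p = 8.48e-08), above the change of 91.3% of tested genes. The rise stood beside higher sums of astrocyte, microglia, progenitor, oligodendrocyte lineage, mural and endothelial markers and a lower sum of neuron markers. In the astrocyte, progenitor, oligodendrocyte lineage, mural and endothelial lists at least 1 tested marker fell. The cells that carried Vcam1 were not resolved here.

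**Figure D3:**
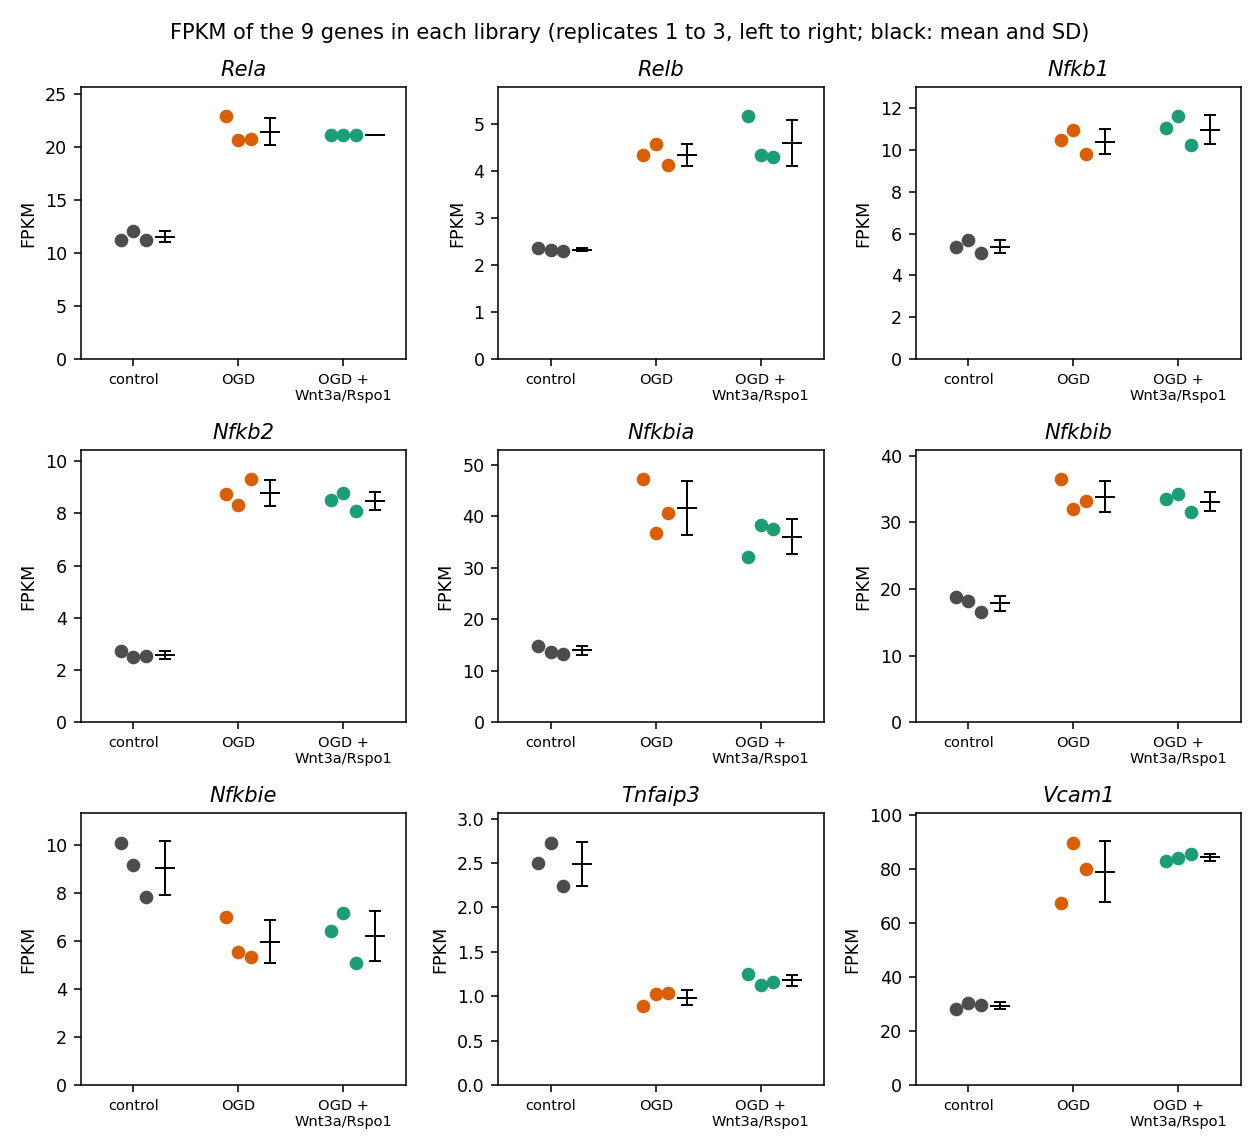
FPKM of the 9 genes (y axis, from 0, a scale per gene) in each library of control, OGD and OGD with Wnt3a plus Rspondin 1; points are replicates 1 to 3 from left to right, and the black mark is the mean with its SD (n = 3). In 7 panels every library with OGD is above every control, and in the panels of Nfkbie and Tnfaip3 every library with OGD is below them.

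The order of the 9 transcripts by FPKM in controls was Vcam1, Nfkbib, Nfkbia, Rela, Nfkbie, Nfkb1, Nfkb2, Tnfaip3 and Relb. Of these neighbours, the ranges of Nfkb2 (2.48 to 2.74 FPKM) and Tnfaip3 (2.24 to 2.73) overlapped, as did those of Tnfaip3 and Relb (2.31 to 2.36). After OGD the order was Vcam1, Nfkbia, Nfkbib, Rela, Nfkb1, Nfkb2, Nfkbie, Relb and Tnfaip3. There the ranges of adjacent genes no longer overlapped, the closest being Nfkbia (36.8 to 47.1) and Nfkbib (31.9 to 36.45). With Wnt3a and Rspondin 1 these inhibitor genes did overlap, at 32.1 to 38.4 and 31.5 to 34.3 FPKM.

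The addition of Wnt3a and Rspondin 1 was examined by setting the libraries with both proteins against those of OGD alone. None of the 9 passed (adjusted p 0.915 to 0.992 by edgeR), none had an unadjusted p under 0.05, and DESeq2 called none of them either. Calls were rare throughout this comparison, at 0.197% of all tested genes by edgeR and 0.764% by DESeq2, with 5.73% at an unadjusted p under 0.05. The fitted log2 changes of the 9 ran from -0.23 to 0.24, and their 95% intervals together reached from -0.46 to 0.62.

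The intervals of the subunit genes all included 0, and that of Relb was the widest of them. They were -0.21 to 0.13 for Rela, -0.14 to 0.25 for Nfkb1, -0.27 to 0.13 for Nfkb2 and -0.23 to 0.34 for Relb. Rela was at 21.2 FPKM in each of the 3 libraries with the proteins, and Nfkb2 was at 8.5, 8.79 and 8.11 FPKM, within the range of OGD alone apart from replicate 3. Nfkb1 was at 11.1, 11.6 and 10.25 FPKM and Relb at 5.17, 4.35 and 4.3 FPKM, ranges that overlap those after OGD alone.

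Nfkbia had the lowest unadjusted p of the 9 and Tnfaip3 the largest positive change. Nfkbia was at 32.1, 38.4 and 37.5 FPKM with the proteins against 47.1, 36.8 and 40.6 FPKM in OGD alone. The groups overlapped, and the log2 change was -0.23 ± 0.11 (unadjusted p = 0.0578, adjusted p = 0.915 by edgeR). With single libraries left out, that change ran from -0.31 (without OGD replicate 2) to -0.12 (without OGD replicate 1, its highest library). Tnfaip3 was at 1.25, 1.13 and 1.16 FPKM with the proteins, above all libraries of OGD alone (0.89 to 1.04) and below all controls. It was the only one of the 9 whose ranges did not overlap, which 9.73% of all tested genes also showed (5.86% in the higher direction). Its log2 change was 0.24 ± 0.17, with a 95% interval that included 0 (-0.14 to 0.62, adjusted p = 0.976 by edgeR, 31 to 61 reads per library).

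Nfkbib and Nfkbie overlapped between the OGD groups as well. Nfkbib was at 33.5, 34.3 and 31.5 FPKM with the proteins (95% interval of the log2 change -0.25 to 0.14), and Nfkbie at 6.41, 7.15 and 5.07 FPKM (-0.32 to 0.40). Vcam1 was at 83.1, 84.0 and 85.7 FPKM, inside the range of OGD alone (67.3 to 89.8), with an interval of -0.13 to 0.30. Its 3 libraries lay closer together (SD 1.30 FPKM) than those of OGD alone (SD 11.3 FPKM). An adjusted p that misses the threshold does not show equal levels, and these intervals give the sizes of change the libraries leave room for.

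The libraries with OGD and both proteins were also set against the untreated controls. This comparison shares its controls with that of OGD alone, so the values are given side by side and are not independent. All 9 passed, 7 higher and 2 lower, against 72.6% of all tested genes called (36.6% higher, 36.0% lower), and no FPKM range overlapped, as for 79.1%. Nfkb2 rose by 1.61 ± 0.10 on the log2 scale (1.68 in OGD alone), Vcam1 by 1.41 ± 0.10 (1.33), Nfkbia by 1.26 ± 0.11 (1.49) and Nfkb1 by 0.92 ± 0.09 (0.87). Relb rose by 0.90 ± 0.14 (0.85), Nfkbib by 0.79 ± 0.09 (0.84) and Rela by 0.77 ± 0.08 (0.81). Tnfaip3 fell by 1.17 ± 0.16 and Nfkbie by 0.64 ± 0.16, against falls of 1.41 and 0.69 in OGD alone. The largest adjusted p was 0.00299, for Nfkbie (edgeR). The order of the 9 levels was the same as after OGD alone.

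**Figure D4:**
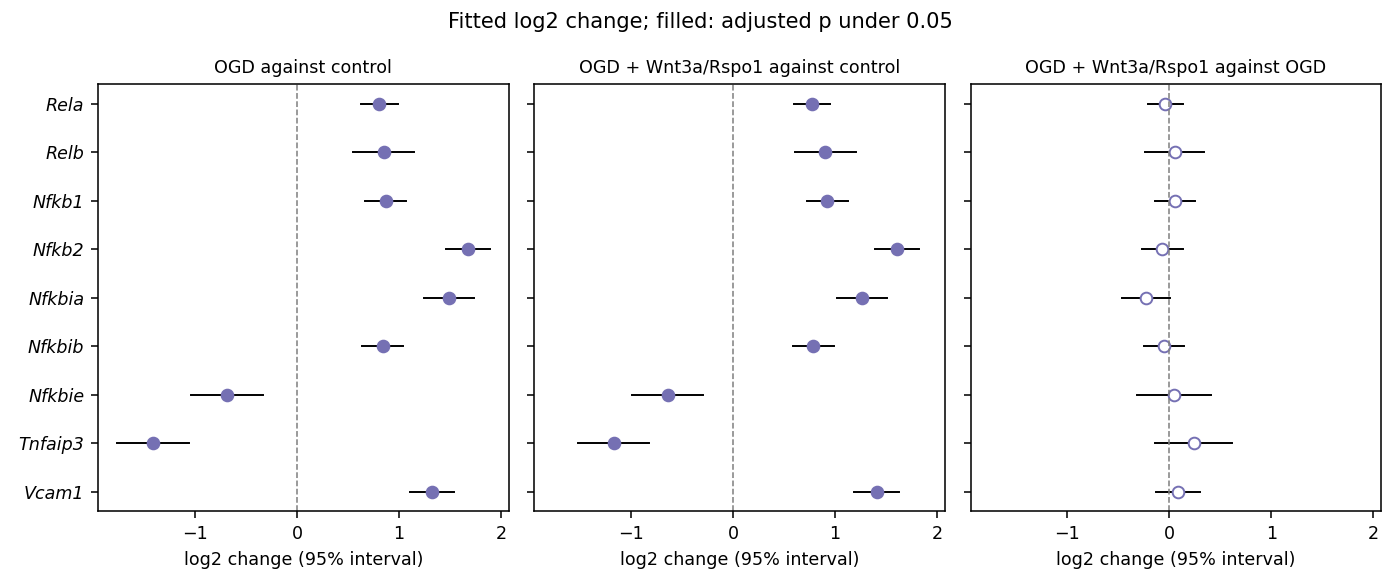
Fitted log2 change with its 95% interval (x axis) for the 9 genes in the 3 comparisons; filled points passed an adjusted p of 0.05. In both comparisons with control all 9 points are filled, 7 to the right and 2 to the left of 0, and against OGD alone all 9 are open and their intervals include 0.

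In the authors' deposited table for OGD against control, the log2 ratios of mean FPKM were 1.77 for Nfkb2, 1.58 for Nfkbia, 1.42 for Vcam1 and -1.34 for Tnfaip3, and the other 5 genes were within 1 of 0. For the groups with and without the proteins, the authors' deposited table gave an FDR of 0.9999 for each of the 9.

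Other genes of the pathway were grouped by role in 8 lists, which together held 102 genes, of which 73 were tested. After OGD 44 of these rose and 13 fell (78.1% called, beside 73.1% of all tested genes), with a median log2 change of 0.81. Of all tested genes, 36.3% were called higher and 36.8% lower, and the counts of each list below stand beside these shares. None was called between the OGD groups by edgeR or DESeq2, and 1 had an unadjusted p under 0.05.

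Receptors that signal to NF-kappaB rose in 7 of 10 tested cases and fell in 2 (median log2 change 1.25, 13 in the list). Tnfrsf1a, the main receptor of tumour necrosis factor, rose by 1.62 ± 0.09 on the log2 scale, from 29.2 ± 2.24 to 95.6 ± 7.03 FPKM (mean ± SD, n = 3). Ltbr, the lymphotoxin beta receptor, which feeds the non-canonical route, rose by 1.61 ± 0.08 from 13.9 ± 0.68 to 44.9 ± 1.53 FPKM. Tnfrsf11a, the receptor of RANK ligand, rose by 1.09 ± 0.17 to 3.11 ± 0.61 FPKM.

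Of the 12 listed ligands, 3 had enough reads to be tested, and 1 of them rose and 1 fell (median log2 change -0.31). Hmgb1, which encodes a chromatin protein that signals when released from cells, was the most abundant, at 31.3 ± 4.79 FPKM in controls and 26.7 ± 11.2 after OGD, and did not pass (adjusted p = 0.334 by edgeR). It is named after its values were seen, and near-identical copies of this gene make its count uncertain. Tnfsf12, which encodes the ligand TWEAK, rose by 1.74 ± 0.13 on the log2 scale from 4.49 ± 0.27 to 15.9 ± 1.59 FPKM. Tnf had 0 reads in every control and at most 2 in an OGD library, and Il1b at most 1 read in any library; both are named after their values were seen. A count of 0 allows up to 3 counts, which at these depths is 0.12 to 0.21 CPM (counting error only).

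Downstream of the receptors, 9 of 15 tested adaptors and ubiquitin ligases rose and 1 fell (median log2 change 0.53). Myd88, the adaptor of Toll-like and interleukin-1 receptors, rose by 1.80 ± 0.12 on the log2 scale from 4.18 ± 0.54 to 15.3 ± 1.04 FPKM. Of the kinase genes that act with it, Irak4 rose by 1.82 ± 0.12 to 4.54 ± 0.35 FPKM and Irak1 by 0.88 ± 0.07 to 64.7 ± 1.05 FPKM. Irak2, named after its value was seen, had a log2 change of 0.08 ± 0.19 and did not pass (adjusted p = 0.710 by edgeR). Of the I-kappaB kinase complex and the kinases above it, 4 of 10 rose and 1 fell (median 0.21). The share that rose was near the 36.3% of all tested genes. Ikbkb, the catalytic subunit of the canonical route, rose by 1.16 ± 0.12 to 16.3 ± 1.68 FPKM. Among the adaptors of the kinase TAK1, Tab2 rose by 0.86 ± 0.08 while Tab3 fell by 1.32 ± 0.19.

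Of the deubiquitinases and other brakes on the pathway, 6 of 10 rose and 2 fell (median log2 change 0.63). Tnip1 and Tnip2, whose products bind the TNFAIP3 protein, rose by 1.25 ± 0.09 and 1.47 ± 0.13 on the log2 scale, opposite to Tnfaip3 itself. Otud7b, a deubiquitinase that restrains the non-canonical route, rose by 1.37 ± 0.09 from 4.14 ± 0.25 to 11.1 ± 0.21 FPKM. Cyld, named after its value was seen, is a deubiquitinase that restrains the canonical route and fell by 1.15 ± 0.15, like Tnfaip3.

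The remaining subunit gene and the I-kappaB-like genes moved apart. Bcl3, which encodes a nuclear I-kappaB-like partner of the NFKB1 and NFKB2 products, rose by 3.37 ± 0.26 on the log2 scale, from 0.283 FPKM in controls (4 to 16 reads) to 3.24 FPKM (87 to 147 reads). Nfkbiz, another nuclear member, rose by 1.54 ± 0.18, and Nfkbid fell by 1.35 ± 0.36 with 8 to 39 reads per library. Rel, the fifth subunit gene, named here to complete the family, did not pass, at 0.563 ± 0.214 and 0.333 ± 0.061 FPKM (adjusted p = 0.165 by edgeR, 9 to 23 reads).

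Of 24 genes listed as NF-kappaB targets, 14 were tested, 10 rose and 4 fell (median log2 change 1.02). Gadd45b, a stress-induced gene, rose by 2.67 ± 0.20 on the log2 scale from 1.71 ± 0.31 to 11.5 ± 2.37 FPKM. Cx3cl1, a chemokine made by neurons, fell by 3.05 ± 0.12 from 55.7 ± 2.59 to 7.19 ± 1.27 FPKM, beside the fall of all 12 neuron markers. Ptgs2, the inducible cyclooxygenase gene, had 42 to 71 reads per control library and 0 to 3 after OGD (adjusted p = 1.02e-06 by edgeR). The other 10 listed targets, among them Il6, Ccl2, Cxcl1, Cxcl2 and Nos2, had too few reads for a test. kappaB matches were present in 7 of the 21 promoter windows found for this list, against 4.18% of all windows and 5.1% of those of tested genes. The share was not particular to this list. Matches were present in 4 of 11 windows of the receptors, 3 of 9 of the ligands and 3 of 7 of the other subunit and I-kappaB-like genes. The remaining lists had 1 window with a match each, of 7 to 11.

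Genes around Vcam1 were given by a list of its integrin partners and of other leukocyte adhesion genes, of which 7 of 12 were tested, 5 rose and 1 fell (median log2 change 1.15). Itgb1, the beta chain of the integrin that binds VCAM1, rose by 1.15 ± 0.09 on the log2 scale from 40.4 ± 2.56 to 95 ± 11 FPKM. Its alpha chain gene Itga4, named after its value was seen, fell from 26 to 41 reads per control library to 2 to 6 (adjusted p = 1.77e-05 by edgeR). Adam17, a protease that sheds VCAM1 from the cell surface, rose by 1.63 ± 0.08 to 22.8 ± 1.80 FPKM, and Msn, which encodes the membrane linker moesin, by 1.77 ± 0.08 to 58.5 ± 3.57 FPKM.

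**Figure D5:**
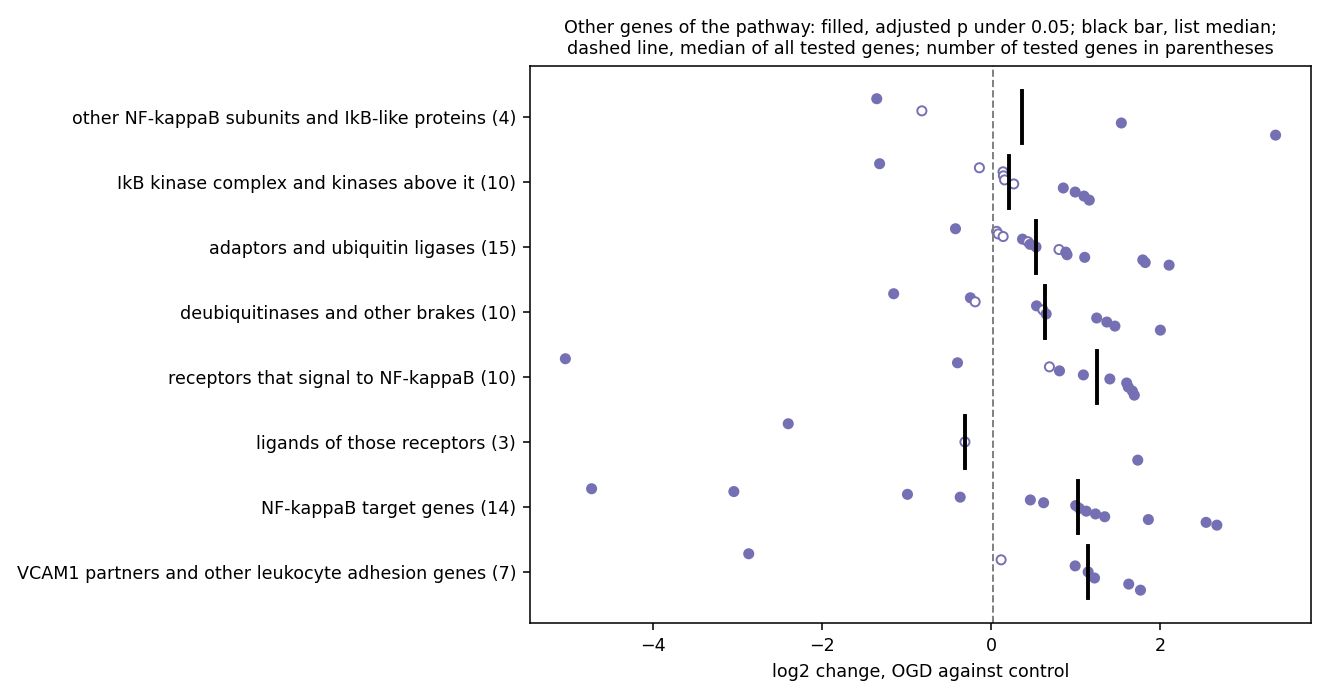
Log2 change after OGD against control (x axis) of the tested genes of 8 pathway lists; filled points passed an adjusted p of 0.05, black bars are list medians and the dashed line is the median of all tested genes (0.02). The medians run from -0.31 for the ligands (3 tested) to 1.25 for the receptors (10 tested), and most lists hold genes on both sides of 0.

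The genes with the most similar profiles over the 9 libraries were found for 3 of the genes, as the smallest root mean square difference of log2 CPM about each gene's own mean, among 11518 genes with a mean of at least 1 FPKM. For Vcam1 they were Asah1, the lysosomal acid ceramidase gene (0.042), Snx5, a sorting nexin gene (0.053), and Pls3, an actin-bundling protein gene (0.058). For Nfkb2 they were Fcgrt, the neonatal Fc receptor gene (0.060), Fkbp10 (0.065) and the zinc transporter gene Slc39a1 (0.068). For Tnfaip3 the nearest, Slc25a22, Atp8a1 and Vldlr, were farther away at 0.092 to 0.104. None of these 9 is in the pathway lists. The measure mainly follows the gap between the controls and the 6 libraries with OGD. Of all tested genes, 36.3% were called higher and 36.8% lower after OGD. All genes were also read from the same 9 libraries and share any effect of the depth of each.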

How the data were processed

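The authors deposited 1 table per pair of groups with a whole-number count and an FPKM value per gene and library, and the log2 ratio of mean FPKM and an FDR (adjusted p-value) per gene, per the file headers. Bowtie 0.12.2, mm8 and mm9 (both mouse builds) are listed in the submitters' processing notes; what Bowtie was used for, the rat build, annotation, counter and the test behind the FDR are not given in the sources used here, nor whether counting used strand, so a gene and one overlapping it, or antisense to it, may share reads. Per the labels' protocols, a TruSeq kit was used for library preparation. Library columns were matched to samples by title (WR columns to RW titles).

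The deposited counts went into edgeR 4.0.16 (R 4.3.3): filterByExpr (minimum count 10, minimum total 15), TMM factors (0.943 to 1.033), 1 robust quasi-likelihood fit of 9 libraries with 3 group means (6 residual degrees of freedom), Benjamini-Hochberg over 13693 tested genes, threshold 0.05. Log2 changes use a prior count of 0.125; SE and 95% intervals come from the F statistic. Fold changes thus rest on counts, levels on FPKM, and similar profiles on log2 CPM (prior count 2). The fit was tested on simulated data. Alternatives were DESeq2 1.42.0, RLE factors, library totals, no filter, only the 6 libraries compared, a replicate block and leaving out each library. Named genes were all 9; per list, up to 3 of the genes called after OGD with the smallest adjusted p and any called between the OGD groups; and the 3 nearest profiles of Vcam1, Nfkb2 and Tnfaip3. The members and lists were chosen with earlier results of these data known. Symbols were matched ignoring case; Ticam1 and Pecam1 were not matched. One gene that the rule names is not reported here.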

Additional observations from a re-analysis of the deposited data

How the results depend on the processing

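All 9 genes kept their direction and their call in both comparisons with control under each of the 12 alternatives (216 of 216 values). The median of all tested genes moved from 0.02 to 0.10 for OGD and from 0.03 to 0.14 for OGD with the proteins when library totals replaced composition factors. Between the OGD groups 101 of 108 values kept their direction, and none of the 9 was called under any alternative. The signs that turned were those of changes near 0. With single libraries left out, the log2 change of Rela ran from -0.071 to 0.019, of Nfkbib from -0.095 to 0.013 and of Vcam1 from -0.032 to 0.201, and the sign turned for each without OGD replicate 1. That of Relb ran from -0.033 (without replicate 1 of the group with the proteins) to 0.097. That of Nfkbie ran from -0.069 (without replicate 2 of that group) to 0.177, and was -0.0079 and -0.033 without OGD replicates 2 and 3. The count of all genes called between the OGD groups, 27, became 99 with DESeq2 and 15 with only the 6 libraries compared, and ran from 12 (without replicate 2 of the group with the proteins) to 49 (without OGD replicate 1) when single libraries were left out; the cause was not tested. With the replicate block it was 65, and the 9 genes kept their calls. The labels give same-numbered libraries no shared source, and the correlation of their deviations from the group means ran from -0.07 to 0.27 over all group pairs. Between the OGD groups it was 0.23, 0.07 and 0.27, and there each library correlated best with its own number (-0.24 to -0.02 for other numbers). That is a hint from the data and not the design, and it did not extend to the controls. Pairs of different numbers with a control reached from -0.32 (control replicate 3 and OGD replicate 1) to 0.28 (control replicate 3 and OGD replicate 2). Depth limited Tnfaip3, Relb and most ligands and chemokines, with the fewest reads.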

Other observations

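OGD replicate 1 held the lowest Vcam1 level of the OGD libraries (67.3 FPKM) and the highest level of Nfkbia (47.1), Rela (22.9), Nfkbib (36.45) and Nfkbie (6.99). Rela gave 21.17 FPKM in each of the 3 libraries with OGD and both proteins, from 1033, 880 and 854 reads.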
